A study of Mus musculus with 36 samples.

Results

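Polycomb repressive complexes are chromatin regulators that keep developmental genes silent, and the mRNAs of 10 of their subunits were followed in mouse embryonic fibroblast (MEF) lines in which transcription of the major satellite repeat (MSR) was forced. The members were chosen by gene symbol, Ezh1, Ezh2, Eed, Suz12 and Jarid2 of Polycomb repressive complex 2 (PRC2) and Rnf2, Ring1, Bmi1, Cbx2 and Cbx7 of Polycomb repressive complex 1 (PRC1), and are 10 of the 54842 genes in the count table. Both lines carried a PiggyBac transposon with an MSR guide RNA and a doxycycline-inducible effector on 1 plasmid: nuclease-dead dCas9 alone in MSR-dCas9-Control cells (Control) and dCas9 fused to the VPR activation domains in MSR-dCas9-Activator cells (Activator). The lines were hygromycin-selected mixed cultures and not single clones. Cells of each line were taken before induction, under doxycycline (10 ng/ml), and once the drug had been withdrawn for 3, 6, 12 or 24 h, with 3 biological replicates in each of the 12 groups and 36 libraries of ribosome-depleted total RNA in all. The Control line received doxycycline for 24 h and the Activator line for 6 h, so effector and length of exposure cannot be told apart at the induced time point and after it. Libraries of the MSR-dCas9-Repressor line were not used here.

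PRC2 places methyl groups on lysine 27 of histone H3 through its catalytic subunits, the closely related methyltransferases Ezh1 and Ezh2, which are active only together with the scaffold Suz12 and with Eed, the subunit that reads the finished mark. Jarid2 is an accessory subunit that helps to bring PRC2 to chromatin. PRC1 attaches ubiquitin to histone H2A through the E3 ligases Rnf2 and Ring1, with a partner of the PCGF family such as Bmi1, while chromodomain proteins such as Cbx2 and Cbx7 dock canonical PRC1 on methylated histone H3. In fibroblasts the complexes are best known for silencing the Cdkn2a and Cdkn2b locus, whose products restrain the cell cycle, and Ezh2 is known as a gene of dividing cells whereas Ezh1 is also made in resting cells.

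The promoters of Ezh1 and Suz12 and a short stretch at the start of Ezh2 are shown because the mRNAs of these 3 PRC2 genes took different courses in the Activator line. RefSeq promoters (GRCm38.p6, 250 bases before to 50 after a start) were given for 9 of the 10 members, and Cbx2 had no entry. Capitals mark an E2F-type motif (TTTCCCGC, TTTCGCGC, TTTGCCGC or TTTGGCGC on either strand, with no other motif counted in its place) and CCAAT, also searched on both strands. The E2F-type letters were in 2.26% of the 32851 RefSeq promoters and in 2 of the 9 members, Suz12 (219 to 212 bases before the start) and Ezh2 (4 to 11 bases into the transcript). CCAAT was in 37.4% of all promoters and in 5 of the 9 members, Eed, Suz12, Ezh2, Jarid2 and Cbx7. The percentages are per promoter entry, whereas a member counted once if any of its entries held the letters, so the 2 are not on the same scale. These matches are letters in a window and were not tested as binding sites.
Ezh1, chr11:101226464-101226713, minus strand, upstream of the start: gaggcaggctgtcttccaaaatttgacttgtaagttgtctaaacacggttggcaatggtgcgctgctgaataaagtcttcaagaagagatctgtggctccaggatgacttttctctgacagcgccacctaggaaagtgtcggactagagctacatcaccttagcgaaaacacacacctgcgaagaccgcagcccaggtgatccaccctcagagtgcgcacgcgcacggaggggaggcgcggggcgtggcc
Suz12, chr11:79992856-79993105, plus strand, upstream of the start: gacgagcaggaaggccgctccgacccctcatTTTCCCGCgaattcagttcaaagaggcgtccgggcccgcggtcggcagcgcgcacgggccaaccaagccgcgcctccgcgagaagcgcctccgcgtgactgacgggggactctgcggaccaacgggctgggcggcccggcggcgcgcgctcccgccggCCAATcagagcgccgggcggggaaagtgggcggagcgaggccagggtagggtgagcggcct
Ezh2, chr6:47595009-47595038, minus strand, across the start: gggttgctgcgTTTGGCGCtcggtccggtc

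The libraries held 27376846 to 57371803 gene counts (median 42865961). The MSR transcript itself, counted as the repeat family GSAT_MM, stood at 22.4 to 51.6 CPM (counts per 1000000 gene counts) in the 18 Control libraries, 53.5 to 101 in uninduced Activator cells and 2324 to 40070 in the 15 Activator libraries from induction on. Activator replicate 2 showed smaller decreases than replicates 1 and 3: over the 1629 genes lower after induction by the limits given below, the median log2 change was -1.53, -0.92 and -1.54 in replicates 1, 2 and 3, and it was smallest in replicate 2 at the later time points too. Over genes higher by the same limits, replicate 2 had the smallest median at induction (1.47 against 2.10 and 2.28) and 24 h (1.39 against 2.07 and 1.97), but not at 3 h (2.14 against 2.08 and 1.95), 6 h (2.04 against 1.88 and 1.98) or 12 h (2.00 against 1.84 and 2.02). Its GSAT_MM level was above that of replicate 1 at 3, 6 and 12 h (10120 against 4043 CPM at 3 h). Replicate 2 was also the Activator library nearest the Control mean for 8, 6, 7, 8 and 8 of the 10 members at the induced, 3, 6, 12 and 24 h time points, so values without replicate 2 are given where they differ. Of 12 fibroblast markers 10 had a mean normalised count above 100, whereas Lum had 3 to 403 counts per library and Thy1 6 or fewer. Their summed level in Control cells was 31390 to 35100 CPM uninduced, 22660 to 23940 at 12 h and 23930 to 26280 at 24 h. In the Activator line it was 33780 to 34710 uninduced, 15420 to 18390 at 12 h and 11010 to 20280 at 24 h. The markers did not differ between the lines as 1. Of 11 tested, 2, 2, 3, 7 and 7 were lower and 2, 2, 3, 3 and 1 higher than in Control from induction to 24 h. Dcn was among those higher than in Control, with a log2 fold change of 1.83 at 12 h. It had not risen: against their own uninduced cells both lines had less Dcn at 12 h, by the study's limits. Markers of other cell types moved too. Of 19, 12 passed the count filter, 2 of them with a mean normalised count above 100. From induction to 24 h 9, 9, 8, 9 and 10 were higher and 0, 1, 0, 0 and 0 lower in Activator cells. Of all genes 31.7%, 39.6%, 40.8%, 41.1% and 34.5% were higher and 25.5%, 31.4%, 33.3%, 34.1% and 29.4% lower. A marker near 0 in Control can pass the filter through Activator libraries alone. Such a marker could hardly be lower, so these counts do not measure a direction. The summed endothelial level (Pecam1, Cdh5, Kdr) was 0.0919 to 0.873 in Control cells and 23.6 to 33.5 in Activator cells at 12 h, mostly from Pecam1 (up to 32.7), with Cdh5 never above 22 counts. The neural level (Rbfox3, Gfap, Snap25) was 0.0245 to 0.469 in Control cells and 3.80 to 7.96 in Activator cells at 6 h, mostly from Gfap (up to 7.85), and the muscle level (Myod1, Myog, Myh3) 0 to 0.127 in Control cells and 4.44 to 5.15 in Activator cells at 12 h, mostly from Myh3 (up to 4.37), with Myod1 never above 3 counts. The part of these shifts in the Polycomb results was not tested. In bulk RNA, fewer cells of a type and less RNA per cell cannot be told apart.

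Before induction the lines did not differ detectably in any member, and from induction on 5 to 8 of the 10 were lower in Activator cells. Calls used edgeR's quasi-likelihood test at a Benjamini-Hochberg adjusted p below 0.05 over all 28536 genes tested, and the study's own limits add a mean normalised count above 100 and a change beyond 2-fold. In uninduced cells 0 of 10 members passed (0.343% of all genes were lower and 0.883% higher, 0.021% lower by the study's limits), with log2 fold changes from -0.20 for Suz12 and -0.21 for Bmi1, the 2 members with an unadjusted p below 0.05, to 0.15 for Ezh1, and DESeq2 also called 0. After induction 5 members were lower and 1 higher (25.5% and 31.7% of all genes), 3 of them lower by the study's limits (5.71%). At 3 h the counts were again 5 lower, 1 higher and 3 by the limits (31.4%, 39.6% and 9.45% of genes), and at 6 h 7, 1 and 3 (33.3%, 40.8% and 10.3%). At 12 h 8 members were lower, 1 higher and 5 lower by the limits (34.1%, 41.1% and 10.9%), and at 24 h 7, 1 and 1 (29.4%, 34.5% and 4.12%).

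The median log2 fold change of the 10 members was -0.26, -0.27, -0.42, -0.83 and -0.53 at the 5 time points from induction on, beside 0.10, 0.16, 0.13, 0.12 and 0.01 over all genes tested. Scaling to the 13 mitochondrially encoded mRNAs moved the all-gene median to -0.25, -0.44, -0.58, -0.49 and -0.18 and gave 9, 8, 10, 9 and 8 members lower with 0 higher, while the share of all calls that were higher went from 55.4%, 55.8%, 55.0%, 54.7% and 53.9% to 36.7%, 33.0%, 31.6%, 36.7% and 48.0%. Mitochondrial mRNAs made up 1.45% to 2.56% of gene counts in Control cells and 1.97% to 3.6% in Activator cells from induction on. With all time points in 1 additive model all 10 members passed, 8 lower and 2 higher (Ezh2 and Jarid2), where 82.1% of all genes passed in either direction.

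**Figure D1:**
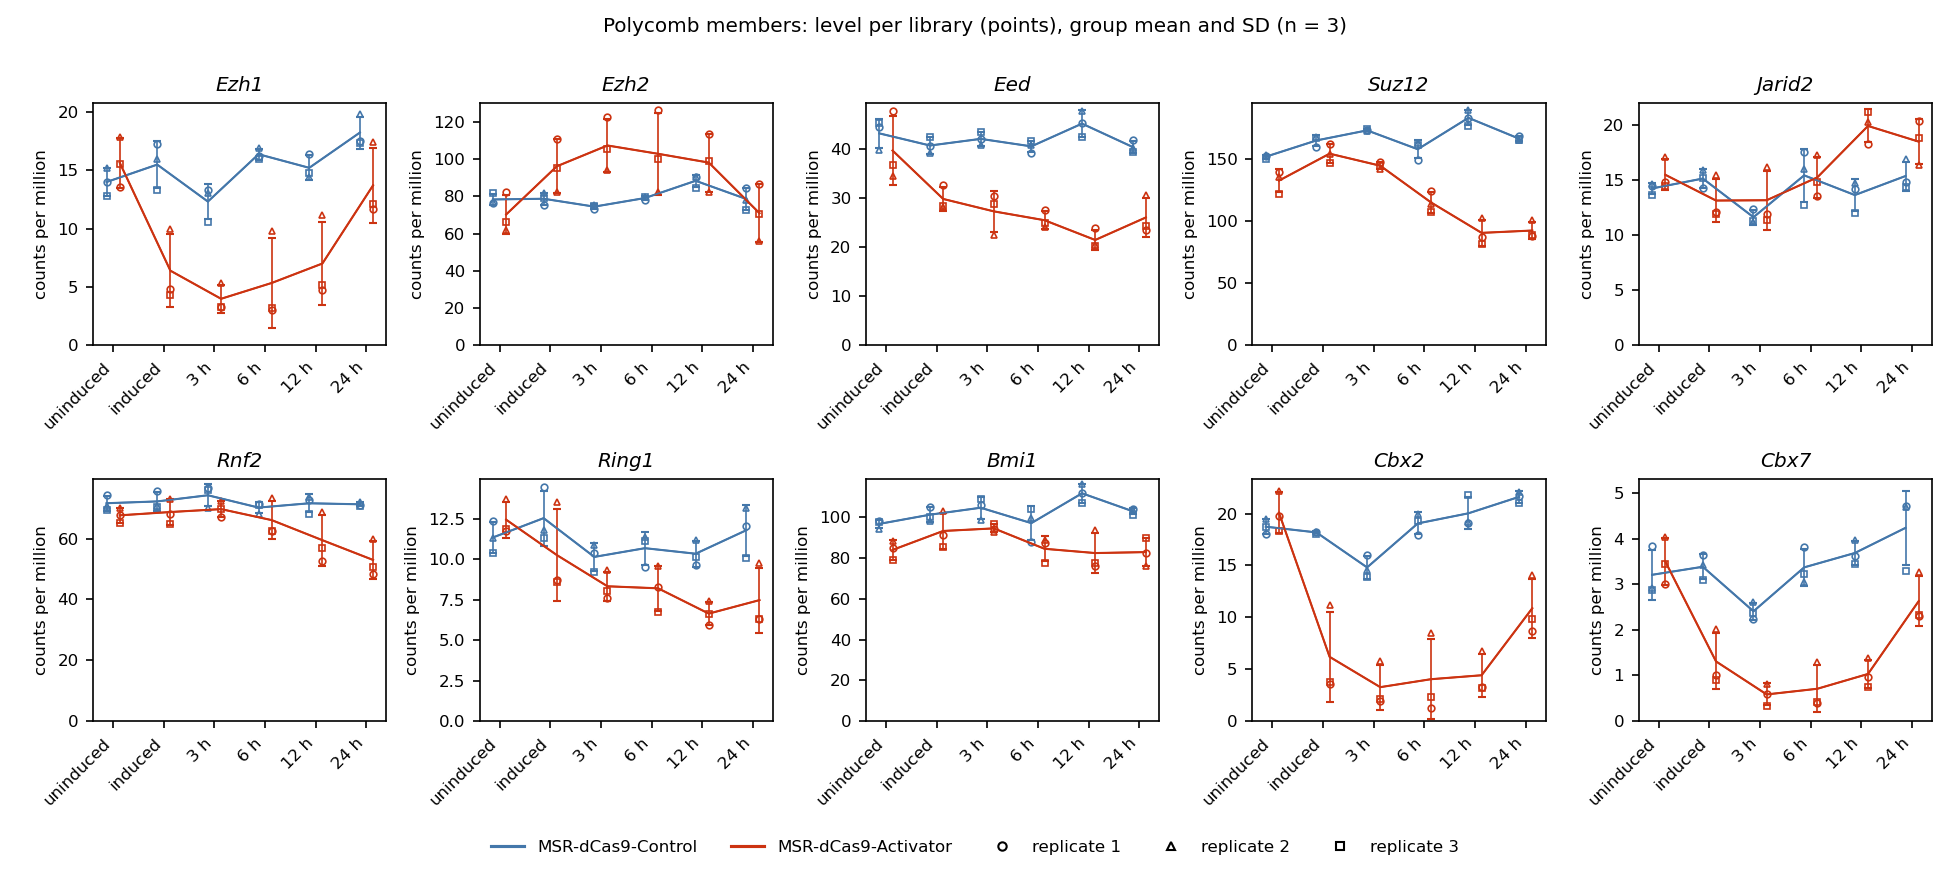
Levels of the 10 members in CPM (linear axes from 0) over the 6 time points, with 1 point per library and lines and bars for the mean and SD of 3 Control (blue) or Activator (red) replicates. Ezh1, Cbx2 and Cbx7 dropped in Activator cells at induction and were higher again by 24 h, Suz12 and Eed were lowest at 12 h, and Ezh2 was above Control in all 3 replicates from induction to 6 h.

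Ezh1 (chr11:101191115-101226463, minus strand, GRCm38) lost most of its mRNA in Activator cells, and Ezh2 did not. At 6 h Ezh1 stood at 16.2, 16.9 and 16.0 CPM in Control replicates 1 to 3 and at 3.04, 9.81 and 3.16 in Activator replicates 1 to 3. The groups did not overlap, and Activator replicate 2 lay between the other Activator libraries and Control. The log2 fold change was -1.73 ± 0.26 (SE, adjusted p = 1.55e-06), or -2.21 without replicate 2. Ezh1 was lower at induction (-1.36 ± 0.25, adjusted p = 5.61e-05), 3 h (-1.67 ± 0.26, adjusted p = 2.99e-06) and 12 h (-1.20 ± 0.25, adjusted p = 0.000132), and each call held when any 1 library or replicate number was left out. At 24 h the Activator libraries read 11.7, 17.4 and 12.1 CPM against 17.5, 19.8 and 17.4, and the difference of -0.44 ± 0.24 did not pass (adjusted p = 0.117), although it did without replicate 2 (-0.42, adjusted p = 0.0044).

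Ezh2 (chr6:47530139-47595341, minus strand), the methyltransferase gene of dividing cells, moved the other way. At 3 h it was at 73.2, 75.5 and 75.0 CPM in Control and at 123, 94.2 and 105 in Activator cells. Every Activator library was above every Control library at induction, 3 h and 6 h, with replicate 2 the lowest of the 3 each time (82.3 at induction, where the highest Control library read 82.0). The log2 fold change was 0.27 ± 0.11 at induction (adjusted p = 0.0407), 0.52 ± 0.11 at 3 h (adjusted p = 0.000223) and 0.36 ± 0.11 at 6 h (adjusted p = 0.00587), and 0.58, 0.82 and 0.68 without replicate 2. It was 0.14 at 12 h (adjusted p = 0.268) and -0.16 at 24 h (adjusted p = 0.219). The rise depended on the scaling: relative to mitochondrial mRNAs the values were -0.09, -0.08 and -0.36 at induction, 3 h and 6 h, each above the all-gene median under that scaling given earlier. Only the 3 h call held through each of 9 fits that left out a library or a replicate number, whereas the call at induction was lost in 6 of 9 and that at 6 h in 2 of 9, without replicate 1 and without replicate 3 (highest adjusted p = 0.342 and 0.154).

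Eed (chr7:89954654-89980983, minus strand) and Suz12 (chr11:79993106-80034123, plus strand), the core partners without which neither methyltransferase works, had their lowest log2 fold changes at 12 h, while those of Ezh1 were lowest at 3 h and 6 h, which did not differ beyond their SE. At 12 h Eed read 45.2, 47.8 and 42.4 CPM in Control and 23.8, 20.3 and 20.1 in Activator cells, and Suz12 183, 189 and 177 against 87.4, 102 and 81.6. Neither gene's groups overlapped. The log2 fold changes were -1.08 ± 0.11 for Eed (adjusted p = 7.13e-10) and -1.02 ± 0.07 for Suz12 (adjusted p = 7.49e-13). Activator replicate 2 was the highest of the 3 for Suz12 and lay between the others for Eed. Eed was already lower at induction (-0.45, adjusted p = 0.000728), 3 h (-0.63, adjusted p = 8.42e-06) and 6 h (-0.67, adjusted p = 3e-06), the first of these being lost without replicate 3 (-0.39, adjusted p = 0.0687). Suz12 did not differ detectably at induction (-0.10, adjusted p = 0.255), differed by -0.26 at 3 h (adjusted p = 0.00229; -0.04 and adjusted p = 0.667 without replicate 2, and also lost without replicate 3) and was lower at 6 h (-0.46, adjusted p = 2.54e-06). Both were still lower at 24 h, Eed by -0.63 (adjusted p = 1.24e-05) and Suz12 by -0.85 ± 0.07 (adjusted p = 9.04e-11), when Suz12 read 169, 165 and 165 CPM in Control and 87.8, 100 and 88.7 in Activator cells. Uninduced Activator cells were already below Control for Suz12, at 140, 136 and 122 against 152, 153 and 150 CPM, without passing adjustment. At 3 h the Activator mean of Suz12 was 145 CPM, above the 133 of uninduced Activator cells, so the value at 3 h was not a fall within that line. The opposite-strand non-coding gene Gm26563 lies within Suz12 with a median of 722 counts beside 6099.

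Jarid2 (chr13:44729474-44921643, plus strand), the accessory subunit, was the only member higher at 12 h. It read 14.2, 14.7 and 12.0 CPM in Control and 18.2, 20.3 and 21.2 in Activator cells at 12 h, without overlap. The log2 fold change was 0.55 ± 0.12 (adjusted p = 0.000151) and held in each of the 9 fits without a library or replicate number, but it was -0.07 relative to mitochondrial mRNAs, against an all-gene median of -0.49 on that scale. At 24 h the groups overlapped and the difference of 0.28 ± 0.12 (adjusted p = 0.0435) was lost in 7 of 9 such fits. Earlier values were -0.21, 0.17 and -0.02 at induction, 3 h and 6 h, none of them past the threshold.

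Among the PRC1 members, Cbx2 (chr11:119022962-119031270, plus strand), a chromodomain subunit of canonical PRC1, changed most. At 6 h it read 17.9, 19.98 and 19.3 CPM in Control and 1.29, 8.46 and 2.37 in Activator cells. The Activator libraries were all below Control but spread widely, with replicate 2 several-fold above the other 2. The log2 fold change was -2.40 ± 0.39 (adjusted p = 7.26e-06), which is 18.95% of the Control level, or -3.21 without replicate 2. Cbx2 was lower by -1.70 ± 0.37 at induction (adjusted p = 0.000435), -2.30 ± 0.39 at 3 h (adjusted p = 1.39e-05) and -2.27 ± 0.38 at 12 h (adjusted p = 1.2e-05), and these calls held in every fit without a library or replicate number. At 24 h Activator cells were at 8.70, 14.1 and 9.83 CPM against 21.7, 22.1 and 20.99 in Control, still without overlap (-1.04 ± 0.36, adjusted p = 0.0143), a call lost in 3 of 9 such fits.

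Cbx7 (chr15:79915807-79971119, minus strand), the other chromodomain member and a known repressor of the Cdkn2a locus, was also lower from induction on, at a much lower level throughout. At 6 h it read 3.82, 3.05 and 3.23 CPM in Control and 0.406, 1.30 and 0.423 in Activator cells. The Activator values rest on 18, 56 and 15 counts, and replicate 2 was again nearest Control. The log2 fold change was -1.43 ± 0.26 at induction (adjusted p = 2.6e-05), -2.05 ± 0.28 at 3 h (adjusted p = 2.42e-07), -2.29 ± 0.28 at 6 h (adjusted p = 2.43e-08) and -1.84 ± 0.26 at 12 h (adjusted p = 4.09e-07). These 4 calls held in every fit without a library or replicate number, and that at 24 h (-0.69 ± 0.24, adjusted p = 0.0137) was lost in 4 of 9. Apobec3, with a median of 1051 counts per library beside 100, overlaps Cbx7 on the opposite strand at 1 end only, from 79915807 to 79915906. Reads in that shared end cannot be told apart if the counting did not use strand, and its strand setting was not given in the sources used here.

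The E3 ligases and Bmi1 differed less between the lines, most clearly at 12 h and 24 h. Ring1 (chr17:34020792-34024680, minus strand) read 9.67, 11.2 and 10.1 CPM in Control and 5.95, 7.39 and 6.59 in Activator cells at 12 h. The groups were apart at 12 h and 24 h, with log2 fold changes of -0.64 ± 0.14 (adjusted p = 0.000114) and -0.67 ± 0.13 (adjusted p = 9.74e-05). Its calls at induction (-0.32 ± 0.13, adjusted p = 0.0414) and 6 h (-0.39, adjusted p = 0.0105) were lost in 6 and 4 of the 9 fits without a library or replicate number, and at 3 h it did not pass (-0.29, adjusted p = 0.0561). Rnf2 (chr1:151458004-151500955, minus strand), the more abundant ligase, overlaps Trmt1l on the opposite strand and differed by -0.07 to -0.09 up to 6 h, never past the threshold. At 24 h Rnf2 read 71.2, 72.0 and 70.7 CPM in Control and 48.3, 59.9 and 50.7 in Activator cells. That difference, -0.43 ± 0.08 (adjusted p = 4.08e-05), held in every such fit, whereas the call at 12 h (-0.27 ± 0.08, adjusted p = 0.00362) was lost in 4 of 9.

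Bmi1 (chr2:18677018-18686629, plus strand), the PCGF-family partner of the ligases, read 112, 116 and 107 CPM in Control and 76.1, 93.6 and 77.7 in Activator cells at 12 h. The groups were apart, and the difference of -0.44 ± 0.09 (adjusted p = 3.69e-05) held in every fit without a library or replicate number. At 6 h Bmi1 differed by -0.20 (adjusted p = 0.0346, lost in 6 of 9 such fits) and at 24 h by -0.31 ± 0.08 (adjusted p = 0.00221; -0.12 and adjusted p = 0.24 without replicate 2). Uninduced Activator cells were already below Control for Bmi1, at 84.8, 88.4 and 78.9 against 98.3, 94.4 and 97.7 CPM, a difference that did not pass adjustment (adjusted p = 0.345). The Activator mean stayed nearly level, at 84.0 CPM uninduced, 82.5 at 12 h and 82.9 at 24 h. The Control mean was 96.8, 112 and 103 CPM at these time points.

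**Figure D2:**
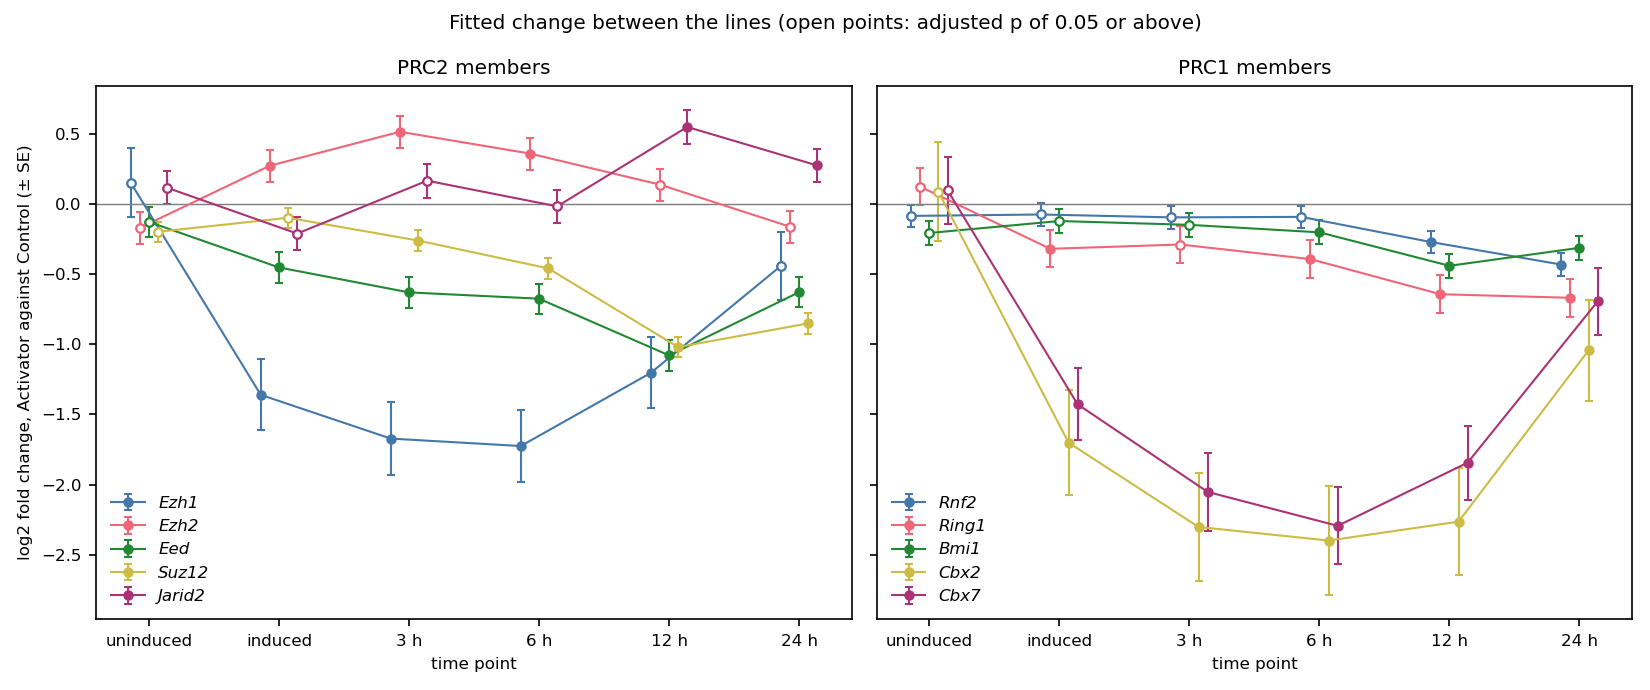
Fitted log2 fold change of Activator against Control (y axis, ± SE) at each time point for PRC2 members (left) and PRC1 members (right); filled points passed an adjusted p of 0.05 in the edgeR test over all genes. Cbx2, Cbx7 and Ezh1 had their lowest values at 6 h (-2.40, -2.29 and -1.73), each within its SE of the 3 h value, Eed and Suz12 at 12 h (-1.08 and -1.02), and Ezh2 at 3 h and Jarid2 at 12 h were higher (0.52 and 0.55; -0.08 and -0.07 under scaling to mitochondrial mRNAs).

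The Control line gave the background of the time course itself. Against its own uninduced cells 0 of 10 members passed at induction, 3, 6, 12 or 24 h, where 0.214%, 0.550%, 0.403%, 1.05% and 0.788% of all genes did. At an unadjusted p below 0.05 there were 0, 2 (Suz12 and Jarid2), 0, 2 (Suz12 and Bmi1) and 0 members, and DESeq2 called 0, 0, 0, 1 (Suz12, at 12 h) and 0. The largest values were -0.43 for Jarid2 at 3 h and 0.38 for Ezh1 at 24 h.

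The test of the difference between the lines in the change from uninduced takes off what uninduced cells already showed. By it 4, 5, 7, 7 and 4 members passed at the time points from induction to 24 h, beside 32.2%, 47.1%, 50.1%, 51.0% and 33.1% of all genes. The 4 at induction were Ezh1, Cbx2 and Cbx7, lower, and Ezh2, higher, and Eed joined them at 3 h. Suz12 and Ring1 were added at 6 h. At 12 h Ezh2 no longer passed and Jarid2 did, and at 24 h the 4 were Eed, Suz12, Ring1 and Rnf2, all lower. Of the members, Ezh1, Cbx2 and Cbx7 passed at induction to 12 h but not at 24 h. The calls at induction were the least secure: 0 members passed without replicate 3, and 5 without replicate 2.

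From 6 h to 24 h after doxycycline removal members moved in both directions relative to Control, a comparison chosen after the data were seen. Their log2 fold changes spanned -2.40 (Cbx2) to 0.36 (Ezh2) at 6 h and a narrower range, -1.04 (Cbx2) to 0.28 (Jarid2), at 24 h. Relative to Control, Cbx7 (1.60, adjusted p = 0.00153) and Ezh1 (1.28, adjusted p = 0.00768) went up (14.5% of all genes did), and Ezh2 (-0.52, adjusted p = 0.0159), Suz12 (-0.39, adjusted p = 0.0048) and Rnf2 (-0.34, adjusted p = 0.0258) went down (12.9% of genes). Cbx2 changed by 1.36 without passing (adjusted p = 0.0542) and by 2.13 without replicate 2 (adjusted p = 2e-08). All 5 calls were lost without replicate 1 and without replicate 3. Relative to mitochondrial mRNAs the changes of Ezh2, Suz12 and Rnf2 turned to 0.01, 0.13 and 0.18. On that scale the all-gene median of Activator against Control itself went from -0.58 at 6 h to -0.18 at 24 h.

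Per kilobase of exon, Suz12 was the most abundant member in uninduced Control cells and Cbx7 the least. Mean levels in CPM per kilobase (± SD, n = 3) were 30.7 ± 0.31 for Suz12, 24.4 ± 0.52 for Bmi1, 17.4 ± 0.62 for Rnf2, 11.7 ± 0.42 for Ezh2 and 11.3 ± 0.75 for Eed. Then came Cbx2 at 4.40 ± 0.17, Ring1 at 3.50 ± 0.30, Ezh1 at 1.88 ± 0.16, Jarid2 at 1.46 ± 0.06 and Cbx7 at 0.494 ± 0.084. Only the neighbours Ezh2 and Eed overlapped in this order. With the longest transcript in place of all exons as the length, Ezh2 moved up to second place at 28.1.

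Ratios within a library do not depend on scaling between libraries. From induction to 12 h every Activator library had more Ezh2 mRNA relative to Ezh1, Eed and Suz12 than every Control library. On the per-kilobase scale the Ezh2 to Ezh1 ratio was 5.35, 5.25 and 5.55 in Control and 46.3, 9.36 and 35.3 in Activator cells at 6 h. The groups were apart from induction to 12 h and overlapped at 24 h (mean 4.82 against 6.12), and Activator replicate 2 had the lowest ratio at every time point. The Ezh2 to Eed ratio at 12 h was 2.62 ± 0.27 in Activator and 1.12 ± 0.04 in Control cells (SD, n = 3), and the Ezh2 to Suz12 ratio 0.818 ± 0.196 against 0.358 ± 0.007. At 24 h the groups overlapped for Ezh2 to Eed (1.62 ± 0.54 against 1.12 ± 0.05) but not for Ezh2 to Suz12 (0.577 ± 0.161 against 0.350 ± 0.023). For Cbx7 to Cbx2, which fell together, the ratio overlapped between lines at every time point but 24 h (0.160 ± 0.012 against 0.128 ± 0.022). Exact two-sided permutation tests of 3 against 3 cannot go below p = 0.1, which these non-overlapping ratios reached, and 36 such comparisons gave an adjusted value of 0.157. Ratios were added after the data were seen.

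**Figure D3:**
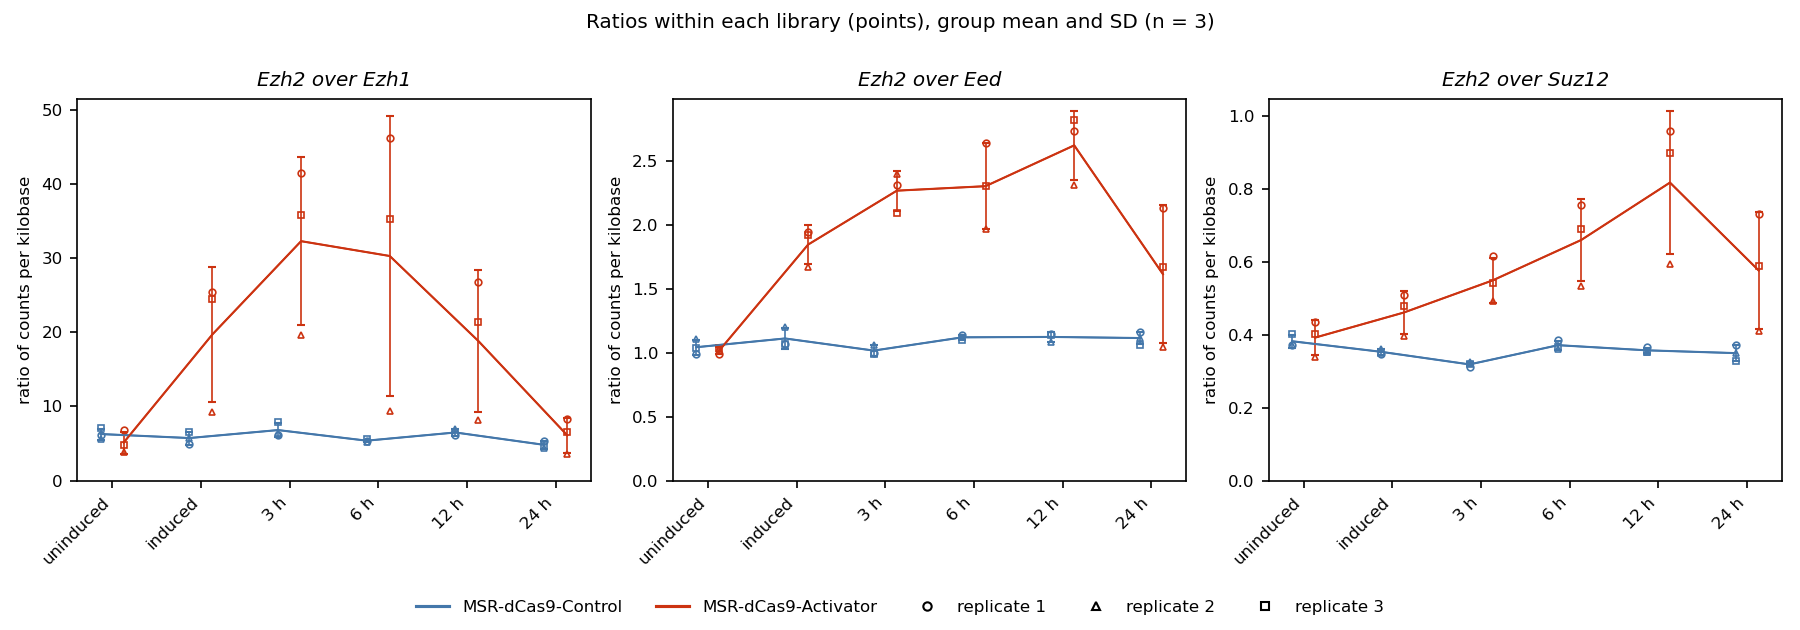
Ratios of counts per kilobase within each library (linear y axes from 0) for Ezh2 over Ezh1, Eed and Suz12 at the 6 time points, with points for replicates and lines and bars for the mean and SD (n = 3) of Control (blue) and Activator (red). Control stayed flat, near 5 to 7 for Ezh2 over Ezh1, while the Activator mean reached 32.3 at 3 h for Ezh1 and 2.62 and 0.818 at 12 h for Eed and Suz12.

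Over the 12 group means, log2 levels of Ezh1, Cbx2 and Cbx7 ran together (Pearson r = 0.98 to 0.991 for the 3 pairs), as did Suz12 with Rnf2 (0.922) and Bmi1 (0.908) and Eed with Ring1 (0.890), while Ezh1 and Ezh2 ran against each other (-0.867). These are descriptions over 12 points that share libraries and the contrast between the lines. Among 13627 genes with a mean normalised count above 100, the closest courses to Ezh1 were those of Zscan26, Slc25a27 and Resf1 (0.995 to 0.996), to Cbx2 those of Zfp369, Lpin2 and Sh2b1 (0.996 to 0.999) and to Cbx7 those of Ccdc120, Vezt and Hoxb3 (0.994 to 0.995). Closest to Ezh2 were Aurka, Cdc25c and Ilf2 (0.971 to 0.984), to Eed Impa2, Elk3 and Fam126a (0.992 to 0.993) and to Suz12 Gk, Ifrd2 and Srbd1 (0.982 to 0.987). For Rnf2 they included Galnt1 and Csnk2a1 (0.99 and 0.989), for Ring1 Exoc6b, Stx2 and Zfyve21 (0.98 to 0.983), for Bmi1 Rpap3, Crlf3 and Wrap53 (0.947 to 0.955) and for Jarid2 Atf7ip, Gm8066 and Stk36 (0.914 to 0.935). By Spearman's rho over the 36 libraries only Zscan26 (Ezh1) and Stx2 (Ring1) stayed among the closest 3.

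Of 25 further Polycomb subunits, most were also lower in Activator cells from induction to 12 h, and fewer were at 24 h. From induction to 24 h 15, 17, 19, 18 and 12 were lower and 3, 4, 5, 5 and 4 higher, with 5, 11, 10, 8 and 1 lower by the study's limits, beside the genome-wide shares given for the members. The median log2 fold change was -0.45, -0.60, -0.75, -0.71 and -0.34. By the study's limits 12 of them were lower at 1 time point or more. Cbx6 and Cbx8, which like Cbx2 are chromodomain subunits of PRC1, were at -1.97 ± 0.17 at 12 h (adjusted p = 2.45e-11) and at -1.42 at 3 h. Of the PCGF-family partners of the ligases, 3 were among these 12, Pcgf2 at -1.84 ± 0.16 at 12 h (adjusted p = 2.99e-11), Pcgf5 at -1.27 at 12 h and Pcgf6 at -1.49 at 3 h. Pcgf1 and Pcgf3, named after their values were seen, did not pass the study's limits and were at -0.62 and -0.78 at 12 h (adjusted p = 0.000339 and 5.41e-09), and Pcgf3 did not pass at induction (-0.05) or 3 h (-0.19). Phc2, a polyhomeotic subunit whose SAM domain lets PRC1 cluster, was at -1.68 ± 0.15 at 3 h (adjusted p = 1.66e-10), and Bcor, of a variant PRC1, at -1.66.

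The subunits that were higher were few, and they are named here after their values were seen. Before induction 1 of the 25 differed, Phf19. Rbbp4, a histone-binding subunit of PRC2 and other complexes, was higher from induction to 12 h (0.43, 0.54, 0.57 and 0.37), Rybp from 3 h to 24 h (0.22, 0.56, 0.50 and 0.74) and its relative Yaf2 from 6 h on (0.29, 0.36 and 0.30). Under scaling to mitochondrial mRNAs 2, 2, 2, 2 and 3 of the 25 were higher from induction to 24 h, and Rbbp4, Rybp and Yaf2 were at -0.15, -0.14 and -0.42 at 6 h. Phf19, a PRC2 accessory subunit, was higher in Activator cells even before induction (1.63, adjusted p = 0.0313) and reached 3.54 at 12 h, from 30, 33 and 16 counts in Control to 358, 260 and 211 in Activator libraries. Epop, at 2 counts or fewer in every Control library, had 5 to 39 counts in each Activator library from induction on.

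**Figure D4:**
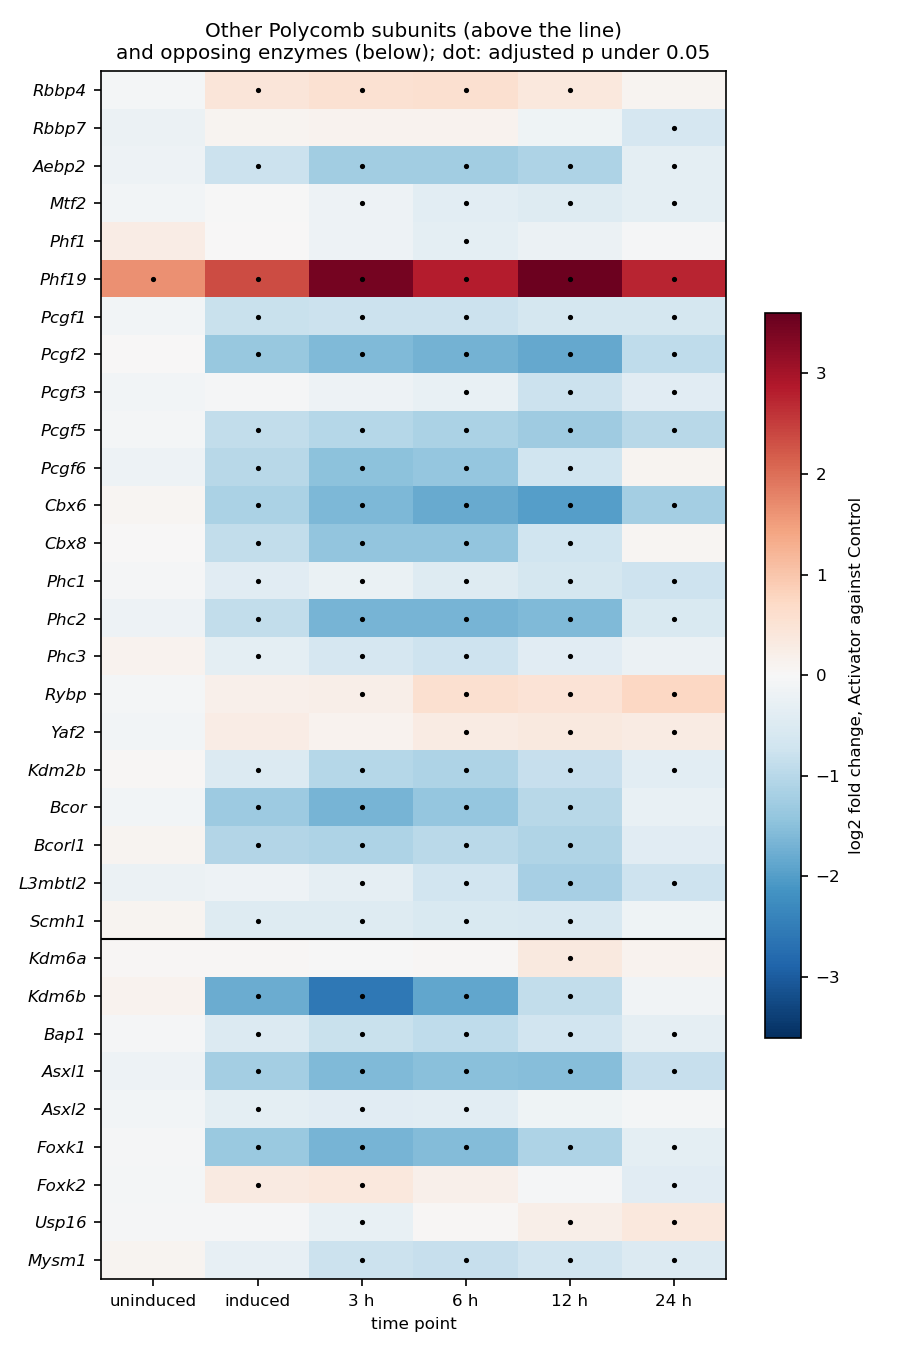
Log2 fold change of Activator against Control (colour, blue lower and red higher) for further Polycomb subunits and 9 opposing enzymes (rows, below the line) at each time point, with a dot where the adjusted p was under 0.05; Epop is left out for its low counts. Most subunits are blue from induction to 12 h and paler at 24 h, with Cbx6 at -1.97 and Pcgf2 at -1.84 the lowest at 12 h and Phf19 red at every time point.

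Enzymes that undo Polycomb marks and their partners differed in both directions, more often lower. Of 9, 5, 7, 6, 5 and 5 were lower from induction to 24 h (25.5%, 31.4%, 33.3%, 34.1% and 29.4% of all genes) and 1, 1, 0, 2 and 1 higher (31.7%, 39.6%, 40.8%, 41.1% and 34.5%). The higher ones besides Kdm6a, named after their values were seen, were Foxk2 at induction and 3 h (0.32 and 0.39), which was lower at 24 h (-0.41), and Usp16 at 12 h and 24 h (0.21 and 0.37), which was lower at 3 h (-0.26). Under scaling to mitochondrial mRNAs Foxk2 was at -0.05 and -0.21 at induction and 3 h, and Usp16 at -0.38 at 12 h and 0.19 at 24 h. Kdm6b, a demethylase of lysine 27 on histone H3, read 97.5, 105 and 99.2 CPM in Control and 13.5, 27.2 and 12.9 in Activator cells at 3 h. The groups were far apart there, and the log2 fold change was -2.57 ± 0.32 (adjusted p = 1.54e-07), but it was -0.11 at 24 h. Its relative Kdm6a read 50.02, 52.1 and 52.8 in Control and 48.9, 56.8 and 48.4 in Activator cells at 3 h and passed at 12 h alone (0.36, or -0.24 under scaling to mitochondrial mRNAs). Foxk1 and Asxl1, partners of the histone H2A deubiquitinase Bap1, were at -1.67 ± 0.13 and -1.59 ± 0.16 at 3 h, and Bap1 itself at -0.81.

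Of 18 textbook Polycomb targets, chosen from general knowledge and not from these cells, 11 passed the count filter, 5 of them with a mean normalised count above 100. Targets near 0 in Control, such as Neurog2 and Sim1, can pass this filter through Activator libraries alone. The counts of higher targets below are therefore not comparable with the share over all genes. From induction to 24 h 4, 6, 6, 7 and 5 of the 11 were higher (31.7%, 39.6%, 40.8%, 41.1% and 34.5% of all genes) and 5, 5, 4, 4 and 0 lower (25.5%, 31.4%, 33.3%, 34.1% and 29.4%), several of these counts lying close to the share over all genes. At the locus that Cbx7 and Bmi1 are known to silence, the neighbours differed. Cdkn2b, a cyclin-dependent kinase inhibitor, read 33.8, 36.6 and 36.3 CPM in Control and 1.97, 8.40 and 3.82 in Activator cells at 3 h, with no overlap. Its log2 fold change was -3.11 ± 0.46 (adjusted p = 2.99e-06), -1.92 at 12 h and -0.91 at 24 h, the last not past the threshold although it was without replicate 2 (-1.38). Cdkn2a, which encodes p16 and Arf, passed at 3, 6 and 12 h with 0.26, 0.28 and 0.27, values that turned to -0.34, -0.43 and -0.37 under scaling to mitochondrial mRNAs. These 3 calls were lost in 4, 3 and 5 of the 9 fits without a library or replicate number (highest adjusted p = 0.283, 0.200 and 0.474).

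The developmental regulators among the targets split. Foxa2 was lower, at -2.43 ± 0.56 at 3 h (adjusted p = 0.000524), and Irx3 (-1.76) and Pax3 (-0.92) were lower there too. Neurog2 was at 0 in all 3 Control libraries at 12 h, which allows up to 3 counts in each, and at 1.06, 0.831 and 2.47 CPM in Activator cells. Sim1 was likewise at 0 in Control and at 0.556, 0.569 and 0.858 in Activator cells at 12 h, and Foxd3 and Lhx1 were also higher from low levels. Irx3, Pax3, Neurog2, Sim1, Foxd3 and Lhx1 are named after their values were seen. Histone marks at these genes were not measured in these libraries.

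**Figure D5:**
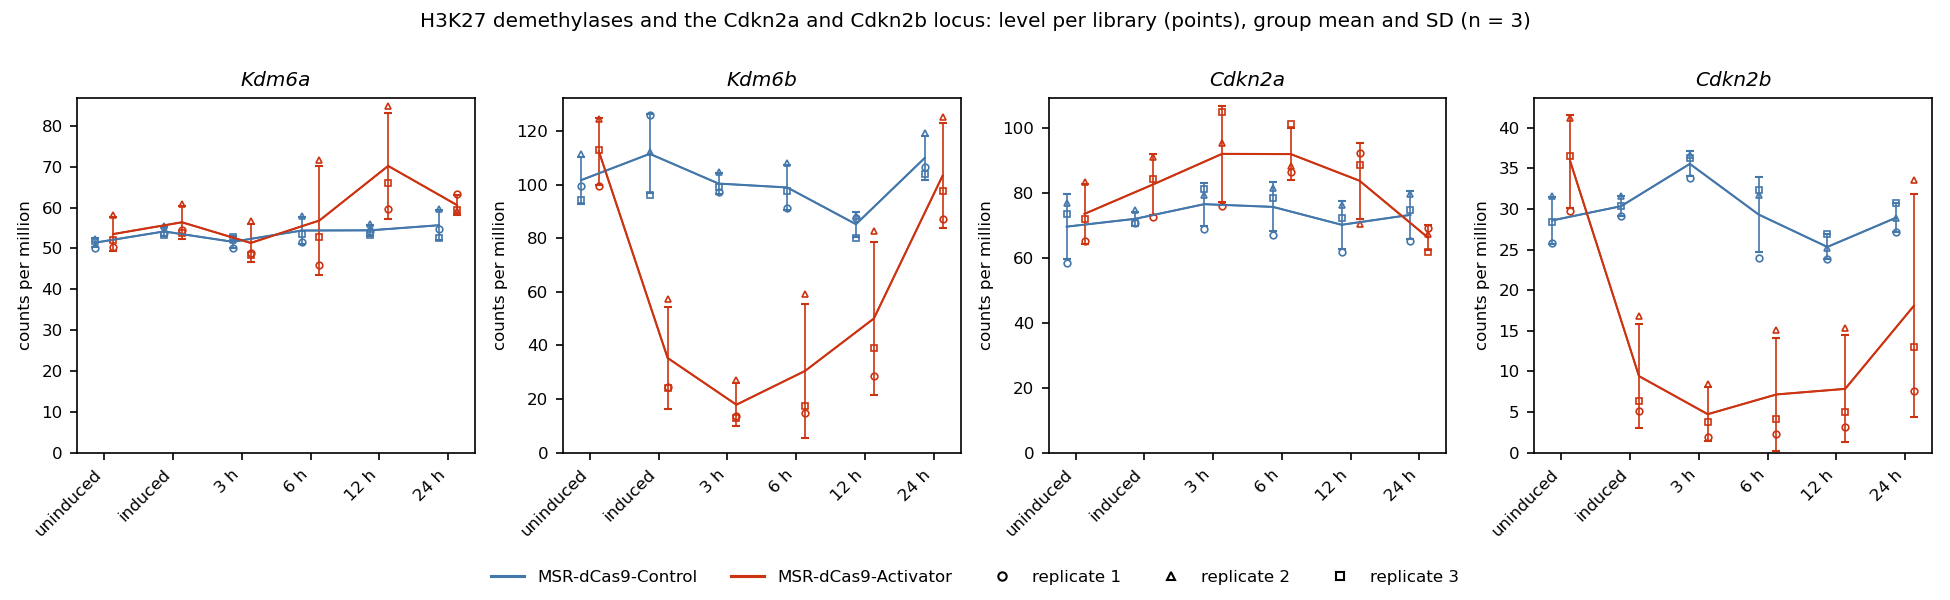
Levels in CPM (linear y axes from 0) of Kdm6a, Kdm6b, Cdkn2a and Cdkn2b at the 6 time points, with points for replicates and lines and bars for the mean and SD (n = 3) of Control (blue) and Activator (red). Kdm6b and Cdkn2b were lowest in Activator cells at 3 h (12.9 to 27.2 and 1.97 to 8.40) and Kdm6a stayed near Control there (48.4 to 56.8 against 50.02 to 52.8), while Cdkn2a differed by 0.26 to 0.28 on the log2 scale from 3 h to 12 h, a direction that reversed under scaling to mitochondrial mRNAs.

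Genes of proliferating cells were examined because Ezh2 is one. Of 18, 3, 8, 7, 2 and 0 were higher (31.7%, 39.6%, 40.8%, 41.1% and 34.5% of all genes) and 5, 6, 9, 12 and 15 lower (25.5%, 31.4%, 33.3%, 34.1% and 29.4%) from induction to 24 h. The early higher ones included the replication helicase genes Mcm4 (0.56 at 3 h) and Mcm7 (0.68 at 3 h), named after their values were seen (-0.05 and 0.08 under scaling to mitochondrial mRNAs), while E2f2 was at -2.24 at 6 h and Tk1 at -2.12, Rrm2 at -2.10, Ccne1 at -1.91 and Ccna2 at -1.72 at 12 h. At 24 h Top2a, Mki67 and Cdk1 were at -1.42, -1.18 and -1.04. At induction, 3 h and 6 h, when Ezh2 was higher, 3, 8 and 7 of these 18 genes were higher and 5, 6 and 9 lower. Before induction their median log2 fold change was already -0.23, beside 0.03 over all genes. By the difference between the lines in the change from uninduced, 6, 8 and 7 were higher and 2, 4 and 5 lower. By that contrast 32.2%, 47.1% and 50.1% of all genes passed in either direction. The part of cell cycle stage in the level of Ezh2 was not tested.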

How the data were processed

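Gene and repeat counts of 36 libraries were analysed. The authors prepared stranded libraries from ribosome-depleted RNA, trimmed the paired-end reads with cutadapt, mapped them with STAR (GRCm38) and used TEtranscripts to count genes and repeats, and the deposited values are counts without normalisation. The annotation release, the handling of multi-mapping reads and the strand setting were not given in the sources used here, so overlapping genes are uncertain. Samples were grouped by line and time point from the labels, and all 36 columns were matched by name.

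Genes were tested with edgeR 4.0.16 in R 4.3.3 (filterByExpr, TMM factors from genes, robust quasi-likelihood fit with 12 groups and the replicate number), and 28536 of 54842 genes were kept. P-values were adjusted by Benjamini-Hochberg over all genes tested, each SE was derived as the absolute log2 fold change over the root of F, and CPM of genes (counts per 1000000) used TMM library sizes. The row without a gene name held 0.0021% to 0.00452% of all counts, repeats included, and was left out. Coordinates and lengths came from GENCODE M21 (54495 genes matched), and promoters from RefSeq. Python 3.11.15, pandas 2.3.3, SciPy 1.17.1 and matplotlib 3.10.9 were used.

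Members and lists were chosen with earlier results of these data known. All 10 members are named, and of each other list at most the 8 genes with the largest log2 fold change among those past the study's limits, Cdkn2a and Cdkn2b always, and for each member the 3 genes with the most similar course. Others are named as chosen after their values were seen. Results for a few genes that this rule names are not reported here. Alternatives were DESeq2 1.42.0, other scalings, no filter, no replicate number, the libraries of 1 time point alone, and leaving out libraries. On simulated counts for Activator against Control at 12 h, 20 of 67 genes changed by 0.5 on the log2 scale were recovered, 57 of 67 changed by 1 and 63 of 66 changed by 2, with 8 false calls among 28536 genes. Only 200 genes were changed there, whereas 34.1% were lower and 41.1% higher in the data at 12 h. These rates therefore cannot be carried over to that contrast. Replicates were stated to be biological, and p-values measure the spread between them.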

Additional observations from a re-analysis of the deposited data

Results flagged for a closer look

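For 9 of the 10 members, Bmi1 being the exception, the change from uninduced differed between the lines at 1 time point or more. The test was edgeR's interaction contrast at an adjusted p below 0.05, and these differences in log2 change are given here as values. By the same contrast 32.2%, 47.1%, 50.1%, 51.0% and 33.1% of all genes passed at induction, 3, 6, 12 and 24 h. The share of all genes passing at any time point was not computed, so 9 of 10 does not set the members apart. At induction they were -1.51 for Ezh1, -1.79 for Cbx2, -1.53 for Cbx7 and 0.443 for Ezh2. At 3 h they were -1.83 for Ezh1, -2.39 for Cbx2, -2.15 for Cbx7, -0.503 for Eed and 0.685 for Ezh2. At 6 h they were -1.88 for Ezh1, -2.49 for Cbx2, -2.39 for Cbx7, -0.548 for Eed, -0.261 for Suz12, -0.516 for Ring1 and 0.530 for Ezh2. At 12 h they were -1.36 for Ezh1, -2.35 for Cbx2, -1.94 for Cbx7, -0.952 for Eed, -0.823 for Suz12, -0.767 for Ring1 and 0.434 for Jarid2. At 24 h they were -0.502 for Eed, -0.654 for Suz12, -0.793 for Ring1 and -0.347 for Rnf2. Eed at 3 h, Suz12 at 6 h and Rnf2 at 24 h passed with all replicates but with none of the 3 replicate numbers left out. With 3 replicates per group, single libraries were not tested for standing apart.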

How the results depend on the processing

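Apart from leaving out libraries, 911 values of single genes kept their direction and side of the threshold, 81 were no longer past it, 28 newly passed it and 31 changed sign. When a library or replicate number was left out, 982 values of genes and ratios held, 97 were no longer past the threshold, 8 newly passed it, 18 changed sign and 5 ratios moved by more than their SD. The causes of these changes were not tested unless an alternative's own construction (fewer samples) shows them. Scaling to mitochondrial mRNAs turned Ezh2 to -0.0949, -0.0824, -0.357 and -0.476 at induction to 12 h, Jarid2 to -0.425 at 3 h and -0.0705 at 12 h, Cdkn2a to -0.173, -0.343, -0.430 and -0.368 at induction to 12 h, and the differences in change of Ezh2 at 6 h to -0.222 and of Jarid2 at 12 h to -0.219. From 6 to 24 h it gave 0.0121 for Ezh2, 0.133 for Suz12, 0.180 for Rnf2, 0.252 for Ring1 and 0.402 for Bmi1. It gave 6 members past the study's limits at 6 h in place of 3, 2 at 24 h in place of 1 and 8 differences in change at 3 h in place of 5. With DESeq2 and with its size factors in edgeR, Rnf2 was at 0.00418 and 0.00443 at induction, 0.0403 and 0.0414 at 3 h and 0.0866 and 0.0856 at 6 h, Jarid2 at 0.162 and 0.161 at 6 h and Cdkn2a at 0.0136 and 0.0136 at 24 h. They called 3 and 2 members by the study's limits at 12 h in place of 5, 2 and 2 differences in change at 24 h in place of 4, and DESeq2 called 1 member in Control cells at 12 h in place of 0. Fits of 1 time point's libraries called 5 members at 6 h and 4 at 24 h in place of 8 each, 2 by the study's limits at 12 h, and put Jarid2 at 0.0808 and Rnf2 at 0.00125 at 6 h. At 24 h 0 members passed the study's limits under DESeq2, its size factors, library size without TMM, no filter, no replicate block and that time point's libraries alone. From 6 to 24 h no filter gave 3 members and no replicate block 2 in place of 5, repeat counts in the library size put Eed at -0.0170, and library size without TMM put Bmi1 at 0.111.

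Replicate numbers were kept in the fit as in the study's design. Without this replicate block 5 members passed at 24 h in place of 8, and 2 differences in change at induction in place of 4. Same-numbered libraries of the lines correlated by 0.255 to 0.393 uninduced, 0.110 to 0.208 induced, 0.141 to 0.355, 0.137 to 0.307, -0.00995 to 0.250 and 0.0086 to 0.227 at 3 to 24 h, each best with its own number for 3, 3, 3, 3, 2 and 2 of 3, which hints at pairing without the labels stating it.

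With a library or replicate number left out, 3 to 6 members passed at induction, 5 to 8 at 6 h and 5 to 8 at 24 h, and 2 to 5 at 12 h and 0 to 1 at 24 h by the study's limits. Differences in change passed for 0 to 5, 3 to 4, 3 to 6, 4 to 8 and 1 to 6 members at induction to 24 h, and for 0 to 7 from 6 to 24 h. The sign changed within -0.078 to 0.216 for Cbx2 and -0.0862 to 0.352 for Cbx7 uninduced, -0.154 to 0.0793 for Suz12 at induction, -0.119 to 0.0278, -0.165 to 0.0491 and -0.147 to 0.00729 for Rnf2 at induction to 6 h, -0.203 to 0.0339 for Bmi1 at 3 h, -0.126 to 0.163 for Jarid2 at 6 h, -0.267 to 0.124 for Ezh2 and -0.257 to 0.0461 for Cdkn2a at 24 h, and -0.174 to 0.216 for Eed from 6 to 24 h. Depth limits Cbx7 most, with 13 to 227 counts per library (median 100).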
